A study of Mus musculus with 9 samples.

Results

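The collagen chain genes are the 44 genes, of 55302 gene symbols measured, whose symbol is Col, a number, the letter a and a number. Membership was set by the symbol alone, but the family was chosen with earlier results of these data known. They were followed in 9 bulk RNA-seq libraries of fibroblasts sorted from mouse lungs with early-stage metastases. Of the 44 genes, 33 were above 0 in at least 1 library, 11 were at 0 in every library and 10 had enough reads to be tested.

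Collagens are triple helices of 3 alpha chains, each chain from its own gene. Fibrillar collagens form the load-bearing fibrils of the lung, basement membrane collagens form sheets under epithelium and endothelium, beaded-filament collagen VI lies around cells, and FACIT collagens decorate the surface of fibrils. Fibroblasts are the main source of fibrillar collagen, and their collagen output is a usual readout of fibrosis.

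The study compared mice given doxorubicin, an anthracycline that damages DNA, with mice given vehicle, to learn how chemotherapy changes fibroblasts in lungs seeded by breast cancer. There were 4 libraries of the vehicle group (Pbs, also named Saline in the labels) and 5 of the doxorubicin group (Dox), each labelled as a biological replicate. All mice were female, were 8 weeks old when tumour cells were injected into the mammary gland, and had the primary tumour resected. The Dox mice then received 2 doses of 5 mg/kg, the Pbs mice the vehicle, and the lungs were collected 24 h after the second dose. The mouse strain and tumour line behind these 9 libraries are not named in the sources that were used. The cells were sorted as CD45-, EpCAM- and PDGFRα+ in the labels, and as CD31- as well in the study's methods.

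The libraries held 432322 to 1285816 reads. A normalised read count here is a gene's number of reads over its library's size factor, so that at a normalised read count of 10 counting alone gave a coefficient of variation of 22.6% to 44.0%. Pbs replicate 4 stood apart from the other libraries. Its 14 granulocyte markers summed to 1181 against 33.8 to 93.4 in the other 8 libraries, its 13 epithelial markers to 488 against 16.9 to 179, its 12 pan-immune markers to 340 against 30.6 to 106, and its 14 fibroblast markers, collagens left out, to 923 against 1431 to 2380. In Dox replicate 2, ribosomal RNA took 35.3% of the values against 5.76% to 16.8% elsewhere. Pdgfra, the receptor used to sort the cells, was at 0.810 to 11.99 in the 9 libraries. Of the markers sorted against, Pecam1 (CD31) was at 3.00 to 10.5, Ptprc (CD45) at 0 to 7.17 and Epcam at 0 to 5.67.

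These values may not be the levels of the chains' own mRNAs. The libraries were made by MARS-seq, which tags the 3′ end of polyadenylated RNA and keeps its strand, and no source used here gives the strand setting of the read count. The 83 cytosolic ribosomal protein genes, which every cell transcribes at a high level, held 0.478% of all reads, and their median normalised read count was 15.9. Ppib was at 123 and Snx22, the gene that faces it on the other strand over shared exon bases, at 8021. Timp3 was at 36.0 and Syn3, which lies over it on the other strand, at 12281. Of 8 ribosomal protein genes with another gene on the opposite strand over their last exon, 6 were below that gene, and the medians were 24.8 and 257. Among all genes tested 63.8% had exon bases in common with a gene of the other strand, against 29.9% of the genes above 0 that were not tested. Of the 10 tested collagen chains 3 had such bases in common (Col4a1, Col4a3 and Col5a1). A collagen value below is therefore the number of reads counted for that gene, and these reads may leave out most of its mRNA.

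Reads counted for collagens were few and came mostly from 1 chain. The 44 genes took 18870 of 6303233 reads (0.299%), and Col1a1 alone took 82.7% of these. The 10 tested chains together took 97.0%, and the 23 chains that were above 0 but not tested had 575 reads in all. Of the 44 genes, 9 were above 0 in all 9 libraries and 4 were above 0 in a single library. As a share of all values in a library, collagens made up 0.376%, 0.458%, 0.368% and 0.210% in Pbs replicates 1 to 4. In Dox replicates 1 to 5 the shares were 0.242%, 0.179%, 0.304%, 0.254% and 0.317%. The Pbs library with the lowest share was replicate 4, which lay inside the range of the Dox libraries, and the other 3 Pbs libraries lay above every Dox library. With ribosomal RNA left out of the total, which takes 35.3% of it in Dox replicate 2, Pbs replicate 4 was at 0.222%, below the 0.270% to 0.381% of the Dox libraries, and the other Pbs libraries were at 0.406% to 0.492%.

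No collagen chain passed the test of Dox against Pbs. By limma on log2(normalised read count + 1), with Benjamini-Hochberg adjustment over the 2604 genes that reached 10 in 4 or more libraries, 0 of 10 chains and 0% of all genes passed an adjusted p of 0.05. Without adjustment 0 chains were under 0.05, where 3.19% of all genes were lower in Dox and 3.03% higher. edgeR, DESeq2 and limma-voom on the recovered reads also called 0 genes, with 149, 463 and 160 genes at an unadjusted p under 0.05. Of the chains in these fits, 0 of 9, 2 of 33 and 0 of 9 were under it. When low genes were kept, 3 of 17428 genes passed by limma (0.0172%), none of them a collagen. The fitted mean was lower in Dox for 8 of 10 chains, against 50.6% of all genes tested. The median log2 fold change of the 10 chains was -0.35 and that of all genes -0.01. Over the 33 chains above 0, the mean normalised read count was lower in Dox for 19 and higher for 14.

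**Figure D1:**
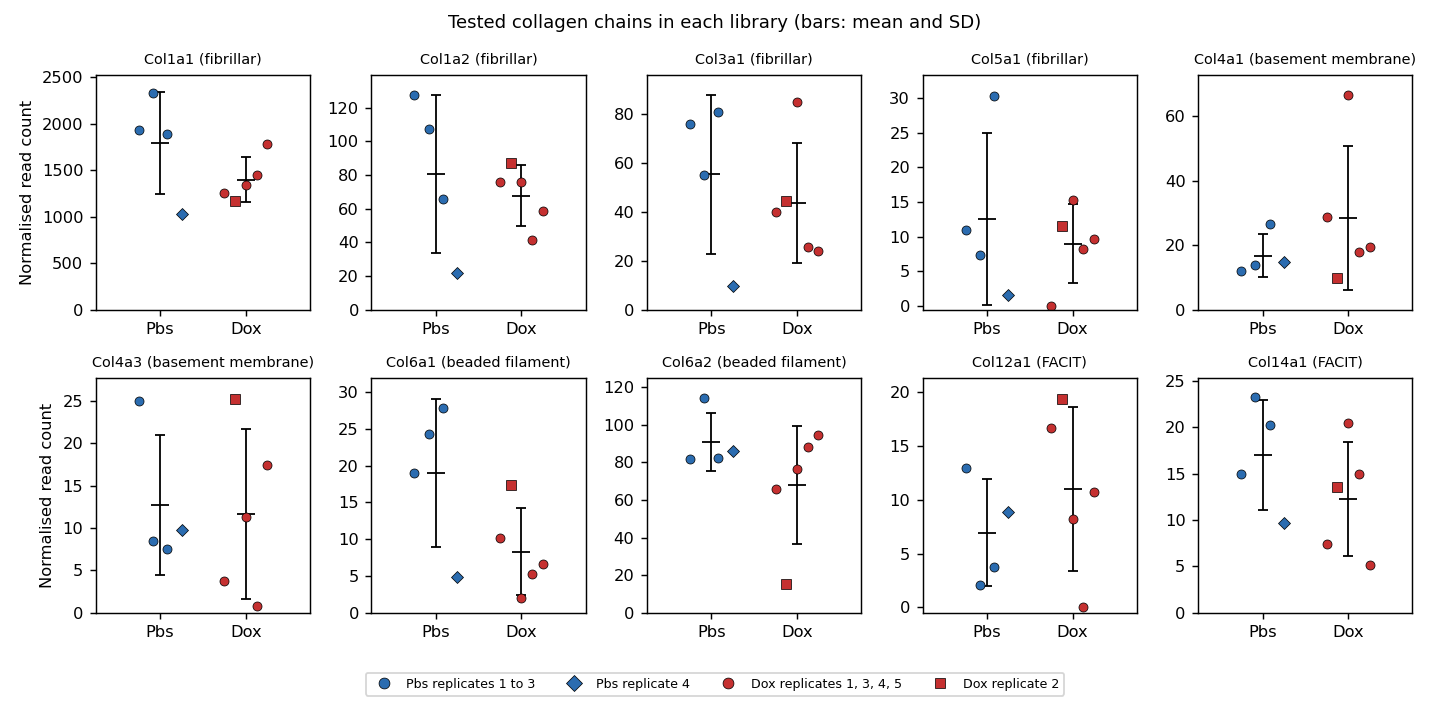
Normalised read count (vertical axis, linear, a separate scale for each gene) of the 10 tested collagen chains in each of 4 Pbs and 5 Dox libraries; points are libraries, bars are the mean and SD. Pbs replicate 4 (diamond) is the lowest library for Col1a1, Col1a2 and Col3a1, and in every panel the groups overlap.

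The fibrillar chains were led by Col1a1 and Col1a2, which together build type I collagen, and by Col3a1, the chain of type III collagen. Col1a1 (chromosome 11, 94936224 to 94953042, plus strand, mm10) had normalised read counts of 1931, 2333, 1888 and 1027 in Pbs replicates 1 to 4 and of 1255, 1169, 1340, 1451 and 1785 in Dox replicates 1 to 5. Pbs replicates 1 to 3 lay above every Dox library and Pbs replicate 4 below every Dox library. The log2 fold change was -0.31 (SE 0.236, 95% interval -0.81 to 0.19, adjusted p = 0.853 by limma). The spread of Col1a1 was 12.8 times the counting error in the Pbs group and 6.30 times in the Dox group.

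Col1a2 (chromosome 6, 4504814 to 4541544, plus strand) was at 128, 108, 65.6 and 21.9 in Pbs and at 76.1, 87.1, 75.6, 41.1 and 58.4 in Dox. The 5 Dox values lay inside the range of the 4 Pbs values. Its log2 fold change of -0.03 (SE 0.456, 95% interval -0.999 to 0.936, adjusted p = 0.991 by limma) leaves room for a change of either sign. Col3a1 (chromosome 1, 45311538 to 45349706, plus strand) was at 75.9, 54.9, 80.8 and 9.72 in Pbs and at 39.9, 44.5, 84.8, 25.4 and 24.1 in Dox, with a log2 fold change of -0.13 (SE 0.573, adjusted p = 0.985 by limma). Its highest value was in Dox replicate 3 and its lowest in Pbs replicate 4. Col5a1, a chain of the type V collagen that starts type I fibrils, was at 10.99, 7.39, 30.3 and 1.62 in Pbs and at 0, 11.6, 15.3, 8.22 and 9.73 in Dox (log2 fold change -0.39, SE 0.993, adjusted p = 0.977 by limma).

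The other fibrillar chains were sparse. Col5a2, Col5a3, Col11a2 and Col27a1 had 35, 12, 12 and 20 reads over the 9 libraries and were not tested. Col2a1, the cartilage chain, Col11a1 and Col24a1 had none, and a count of 0 allows up to 3 reads of each in the 6303233 reads, or 4.76e-05%. These limits cover counting error only. Of 10 cartilage markers 8 were also at 0, and the 2 above 0 summed to 0 to 36.8 in a library, highest in Dox replicate 3. Summed over the 11 fibrillar genes, the normalised read count was 1951 ± 616 in the 4 Pbs libraries and 1529 ± 221 in the 5 Dox libraries, given as mean ± SD here and below. With Col1a1 left out, the sums were 156 ± 76.3 and 129 ± 44.5.

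The proportion of Col1a1 reads to those of its partner chain was far from the composition of the protein, but counted reads do not measure protein chains. Type I collagen has more Col1a1 than Col1a2 chains in each molecule, and here Col1a1 had 13.4 to 46.9 times the reads of Col1a2 in a library. The log2 ratio of Col1a2 to Col1a1 was -4.69 ± 0.69 in Pbs and -4.40 ± 0.60 in Dox, a difference within the spread of either group. For Col3a1 to Col1a1 it was -5.34 ± 1.00 and -5.14 ± 0.89. Per kilobase of annotated exon, and over all 9 libraries, the mean normalised read count was 240.0 for Col1a1, 9.40 for Col6a2, 5.91 for Col1a2, 4.98 for Col3a1, 3.11 for Col4a1 and 2.98 for Col6a1. Since a 3′ tag does not grow with transcript length, this scale orders the genes only roughly. Col1a1 stood above all other chains in every library, whereas Col6a2, Col1a2 and Col3a1 changed places between libraries.

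The type I and III chains were lowest together in Pbs replicate 4. In the 4 Pbs libraries this replicate was the lowest for 6 of 10 chains (Col1a1, Col1a2, Col3a1, Col5a1, Col6a1 and Col14a1), against 28.8% of all genes tested, and for Col1a1, Col1a2 and Col3a1 it was the lowest of all 9, against 14% of all genes. It also had the lowest sum of fibroblast markers and the highest sums of granulocyte, epithelial, pan-immune, endothelial and red blood cell markers. The part of these other cells in the collagen values was not tested, and in a bulk sample fewer cells of a type and less RNA per cell cannot be told apart. Apart from this replicate, the sums of epithelial markers also separated the groups, with 16.9 to 37.9 in Pbs replicates 1 to 3 and 48.3 to 179 in Dox. Those of granulocyte markers did as well, with 33.8 to 37.9 and 65.8 to 93.4. Only 3 of 13 epithelial and 1 of 14 granulocyte markers had enough reads to be tested. The sums of all other marker lists overlapped, such as pan-immune (30.6 to 58.1 and 33.4 to 106) and endothelial (72.9 to 121 and 85.8 to 155). Among single genes tested without this replicate, 3.39% had every Dox library above every Pbs library.

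Without Pbs replicate 4 the type I and III chains were lower in Dox by a larger amount, and still no chain passed. Over the 2447 genes then tested, the log2 fold change of Col1a1 was -0.56 (SE 0.198, 95% interval -0.98 to -0.14, unadjusted p = 0.0127, adjusted p = 0.442 by limma). Its 3 Pbs values of 1888 to 2333 lay above the Dox values of 1169 to 1785. Col6a1 was the other tested chain whose groups no longer overlapped, at 19.0 to 27.8 in Pbs and 2.04 to 17.4 in Dox (log2 fold change -1.63, SE 0.742, unadjusted p = 0.0432, adjusted p = 0.597 by limma). Among chains not tested, the groups of Col9a3 (10.6 to 19.0 in Pbs, 0 to 9.68 in Dox) and Col16a1 (4.99 to 11.6 and 0 to 3.71) also separated. Every Dox library below every Pbs library was seen in 3.19% of all genes tested without this replicate, and in 1.38% with it, where no chain was among them. An unadjusted p under 0.05 with a lower mean in Dox was seen in 3.31% of all genes, and with a higher mean in 4.62%. Col1a2 was at -0.56 (SE 0.358), Col3a1 at -0.81 (SE 0.436) and Col5a1 at -1.01 (SE 1.00) on the log2 scale. The median of the 10 chains was -0.61, with 8 of 10 lower, where 49.7% of all genes were lower and their median was 0.00.

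**Figure D2:**
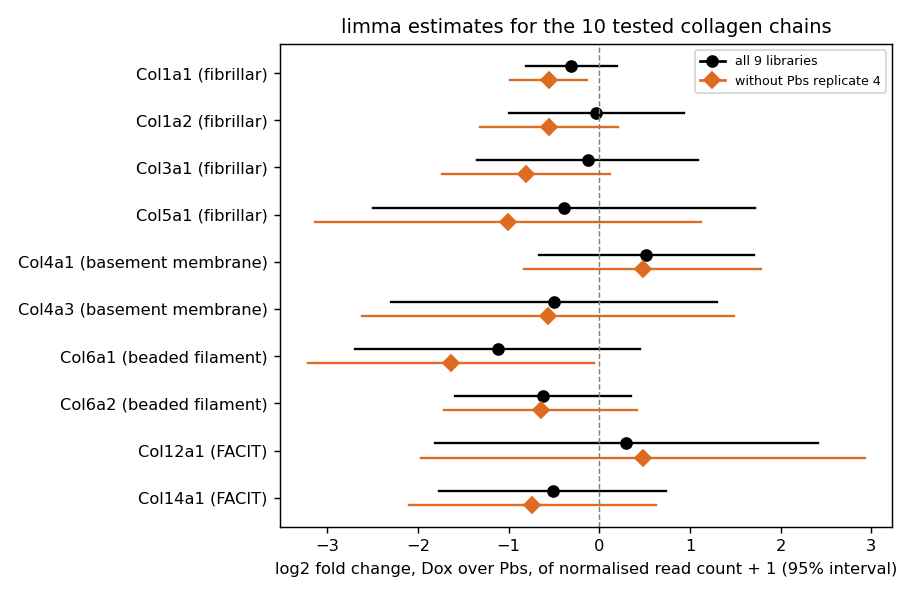
log2 fold change of normalised read count + 1, Dox over Pbs (horizontal axis), with its 95% interval by limma, for the 10 tested chains with all 9 libraries (circles) and without Pbs replicate 4 (diamonds). With all libraries every interval includes 0; without that replicate those of Col1a1 (-0.98 to -0.14) and Col6a1 (-3.21 to -0.06) do not, and no adjusted p is under 0.05.

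Read against fibroblast markers, Col1a1 in Pbs replicate 4 was like the other Pbs libraries and Col1a2 and Col3a1 were not. Each library was divided by the level of the 10 tested of 14 fibroblast markers, none of them a collagen. On this scale Col1a1 was at 1869 in Pbs replicate 4, at 1544 to 2115 in the other Pbs libraries and at 1089 to 1845 in Dox. Col1a2 was at 39.8 in Pbs replicate 4 and at 53.7 to 120 in the other Pbs libraries, and Col3a1 at 17.7 and at 49.8 to 71.4. Col6a2 in this library was the highest of all 9, at 156. This scaling shifted the median log2 fold change of all genes to -0.16, and 61.1% of genes were then lower in Dox. On the same scale the median of the 10 chains was -0.49, with 8 of 10 lower, and the log2 fold change of Col1a1 was -0.47 (adjusted p = 0.984 by limma).

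**Figure D3:**
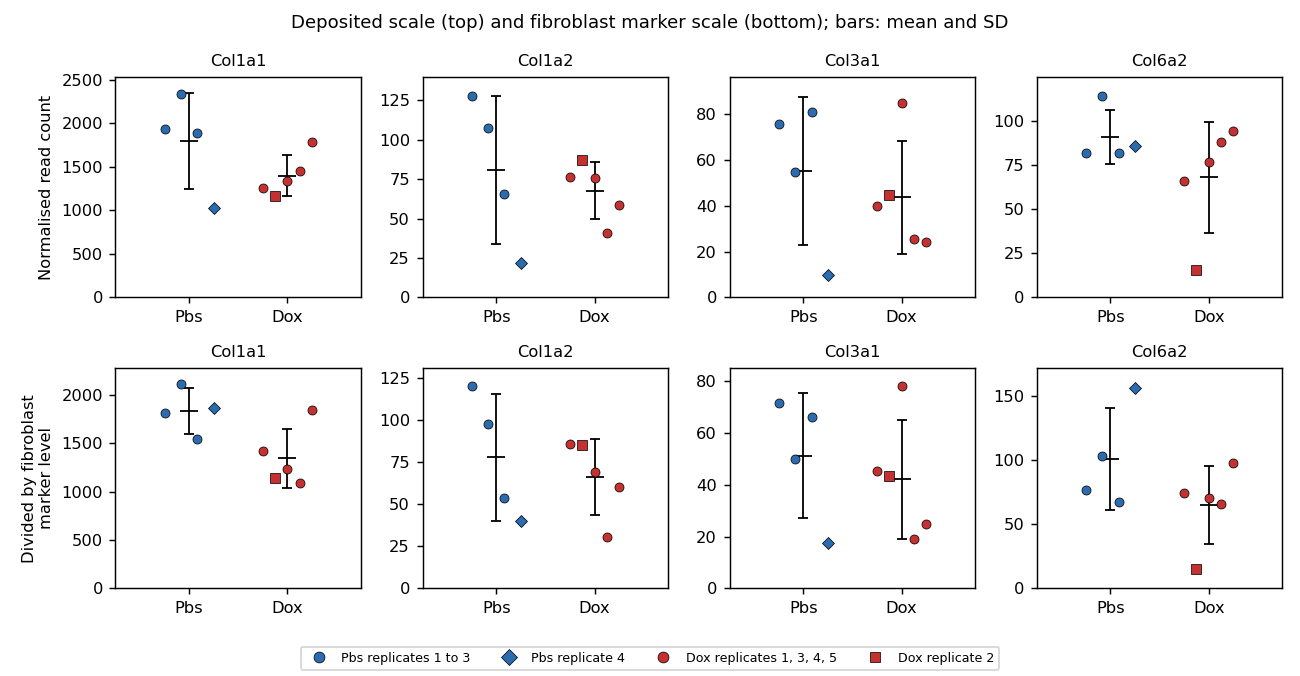
Col1a1, Col1a2, Col3a1 and Col6a2 in each library as normalised read count (top row, vertical axis linear) and divided by the level of fibroblast markers in the library (bottom row); points are libraries, bars are the mean and SD. Pbs replicate 4 (diamond) moves from 1027 to 1869 for Col1a1 and stays the lowest Pbs library for Col1a2 (39.8) and Col3a1 (17.7).

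Among the 4 classes with tested chains, the basement membrane sum was the one with a higher mean in Dox, at 49.6 ± 8.31 in Pbs against 71.5 ± 32.0 in Dox, with the highest library, Dox replicate 3, at 124 and the lowest, Dox replicate 4, at 39.6. The sums overlapped. Type IV collagen is assembled from chains whose genes lie in head-to-head pairs, each pair sharing a promoter region. A short stretch shared by each of these pairs is shown because reads of both partners can be set side by side in each library. Both are from the mouse RefSeq promoter table on build GRCm38.p6 and are written on the plus strand. The first, of 71 bases, lies between the starts of Col4a4, on the minus strand, and Col4a3, on the plus strand, at chr1:82586850-82586920, and holds no annotated exon. The second, of 22 bases, is where the first exons of Col4a1, on the minus strand, and Col4a2, on the plus strand, overlap, at chr8:11312805-11312826. Capitals mark GGGCGG, which was searched on both strands with CCAAT and TATAAA.
Between Col4a4 and Col4a3: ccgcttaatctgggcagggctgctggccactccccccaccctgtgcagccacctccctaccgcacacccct
Shared by Col4a1 and Col4a2: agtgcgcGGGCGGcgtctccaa

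None of the 3 motifs was found in the first stretch, where 13.3% (CCAAT), 20.7% (GGGCGG) and 4.42% (TATAAA) of 32817 promoters hold one in the 71 bases before the start. GGGCGG or its reverse complement was in the first 22 bases from the start in 4.09% of promoters. In the 150 bases before the start, of the 35 collagen genes with an entry 19 held GGGCGG (28.6% of all promoters), 8 held CCAAT (24.5%) and 4 held TATAAA (7.58%). These matches describe the letters only.

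Of the Col4a1 and Col4a2 pair, which makes the main type IV network, Col4a1 was at 11.99, 13.7, 26.5 and 14.6 in Pbs and at 28.8, 9.68, 66.4, 17.9 and 19.5 in Dox. Dox replicate 3 was far above the rest and Dox replicate 2 was the lowest library. The log2 fold change was 0.52 (SE 0.558, 95% interval -0.67 to 1.70, adjusted p = 0.895 by limma). Col4a2 was at 3.00, 2.11, 0 and 1.62 in Pbs and at 0.928, 5.81, 13.3, 6.72 and 10.8 in Dox. It had 54 reads in all and was not tested. Of its 5 Dox values 4 were above every Pbs value, and Dox replicate 3 was the highest library for both genes of the pair.

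Of the Col4a3 and Col4a4 pair, whose chains belong to the network of lung alveoli and kidney glomeruli, Col4a3 was at 25.0, 8.44, 7.57 and 9.72 in Pbs and at 3.71, 25.2, 11.2, 0.747 and 17.4 in Dox (log2 fold change -0.50, SE 0.848, adjusted p = 0.958 by limma). Col4a4 was at 0.999, 0, 0 and 0 in Pbs and at 15.8, 29.0, 7.15, 0.747 and 0 in Dox, with 41 reads in all, and was not tested. Dox replicate 2 was the highest library for both. The last exon of Col4a3 has 563 bases in common with C430014B12Rik on the other strand, which was at 28.0, 23.2, 20.2 and 45.4 in Pbs and at 15.8, 67.7, 34.7, 1.49 and 51.2 in Dox. This transcript and Col4a3 were both highest in Dox replicate 2 and lowest in Dox replicate 4, and without the strand of the count their reads cannot be told apart. Col15a1 was at 0 to 21.5, Col18a1, which gives rise to endostatin, at 0 to 17.4, and Col4a5 and Col4a6 had 16 and 2 reads.

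Endothelial and epithelial cells also make basement membrane. The 12 endothelial markers summed to 72.9 to 121 in Pbs replicates 1 to 3, to 223 in Pbs replicate 4 and to 85.8 to 155 in Dox. The 13 epithelial markers summed to 16.9 to 37.9, to 488 and to 48.3 to 179 in the same libraries, so that apart from Pbs replicate 4 they were higher in every Dox library. The part of either cell type in the basement membrane values was not tested. The basement membrane sum of Pbs replicate 4, at 46.2, was inside the range of the other Pbs libraries, 40.1 to 59.3.

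Of the beaded-filament collagen VI, Col6a2 was the chain with the most reads. It was at 81.9, 114, 82.0 and 85.9 in Pbs and at 65.9, 15.5, 76.6, 88.1 and 94.3 in Dox (log2 fold change -0.62, SE 0.455, adjusted p = 0.848 by limma). Dox replicate 2, the library rich in ribosomal RNA, was far below all others (it was the lowest Dox library for 25.6% of all genes tested), and the remaining Dox values overlapped with those of Pbs. Col6a1 was at 19.0, 24.3, 27.8 and 4.86 in Pbs and at 10.2, 17.4, 2.04, 5.23 and 6.66 in Dox, with the lowest fitted log2 fold change of the 10 chains, -1.12 (SE 0.739, 95% interval -2.69 to 0.45, adjusted p = 0.820 by limma). Col6a3, whose product completes the common collagen VI molecule, was above 0 in all 9 libraries, at 1.62 to 12.6, and was not tested. Col6a4 and Col6a6 had 2 and 1 reads and Col6a5 none. The log2 ratio of Col6a2 to Col6a1 was 2.51 ± 1.13 in Pbs against 3.13 ± 2.05 in Dox. The class sum was 115 ± 21.4 in Pbs against 81.0 ± 28.1 in Dox.

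Of the FACIT chains, Col14a1, which binds to the surface of fibrils, was at 14.98, 23.2, 20.2 and 9.72 in Pbs and at 7.42, 13.5, 20.4, 14.9 and 5.12 in Dox (log2 fold change -0.51, SE 0.589, adjusted p = 0.908 by limma). Col12a1, its relative in tissues under tension, was at 13.0, 2.11, 3.79 and 8.91 in Pbs and at 16.7, 19.4, 8.17, 0 and 10.8 in Dox (log2 fold change 0.30, SE 0.995, adjusted p = 0.979 by limma). Both genes overlapped between the groups. Among chains that were not tested, Col9a3 was at 19.0, 10.6, 12.6 and 8.10 in Pbs and at 4.64, 9.68, 7.15, 0 and 0 in Dox, with a single Dox library above the lowest Pbs library. The partner chains of Col9a3 in type IX collagen, Col9a1 and Col9a2, had no read in any library. The last exon of Col9a3 has 234 bases in common with Tcfl5 on the other strand, which was listed at 0 throughout. Col16a1 was at 0 to 11.6 and Col20a1 had 2 reads, while Col19a1 and Col22a1 had none. The class sum was 42.3 ± 10.995 in Pbs against 29.5 ± 12.2 in Dox.

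The remaining chains had few reads, 62 for transmembrane chains, 38 for short chains and 1 for the others. The transmembrane chains Col13a1, Col17a1 and Col23a1 summed to 5.44 ± 3.41 in Pbs against 5.95 ± 2.76 in Dox, and Col25a1 had no read. The network-forming short chains Col8a1, Col8a2 and Col10a1 summed to 5.39 ± 4.34 and 4.55 ± 6.26. Col28a1 had 1 read, and Col7a1, the chain of the anchoring fibrils of skin, and Col26a1 had none. The reads were too few to compare the groups.

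**Figure D4:**
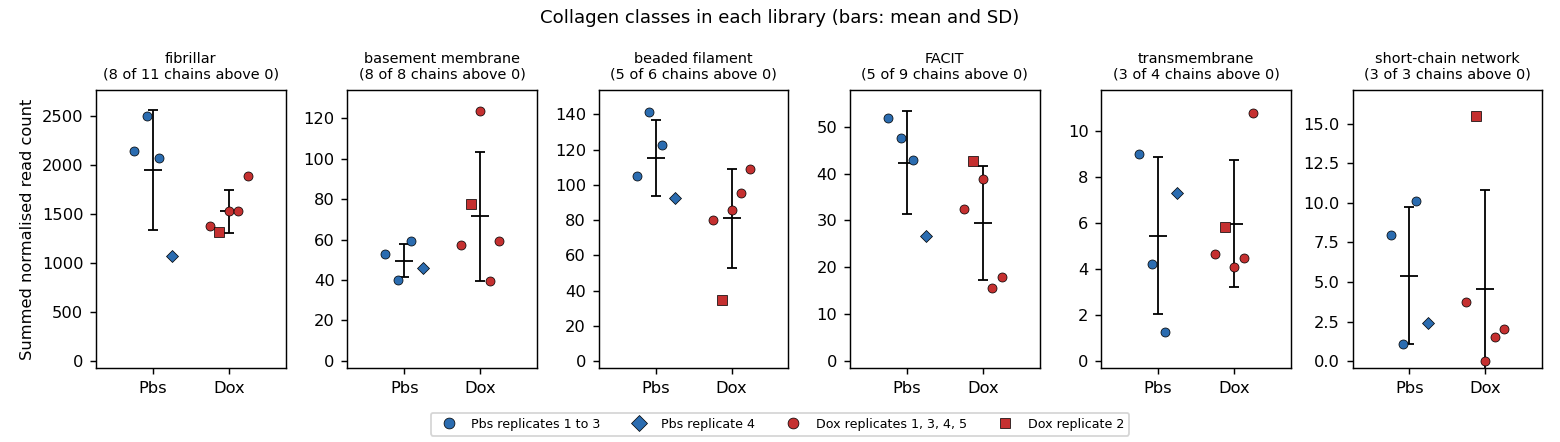
Summed normalised read count (vertical axis, linear, a separate scale for each class) of 6 collagen classes in each library; points are libraries, bars are the mean and SD. The basement membrane sum averaged 49.6 in Pbs and 71.5 in Dox, the fibrillar sum 1951 and 1529, and the groups overlap in every class.

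Genes that fold, export, cross-link, bind or break down collagen were set beside the chains. Of 88 such genes in 7 lists 28 were tested, of which 14 were higher and 14 lower by fitted mean in Dox, and 0 passed by limma, as for all genes. Their median log2 fold change was 0.02. Without Pbs replicate 4, 27 were tested, 11 higher and 16 lower, with a median of -0.07, and 5 of them had changed sign. Without adjustment Ppib and Smad7 were under 0.05 by limma, as were 162 of all 2604 genes tested. Of the 28 genes 12 have exon bases in common with a gene of the other strand.

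All 5 tested of 20 folding and modifying enzymes had a lower mean in Dox, against 50.6% of all genes tested, and none passed. Their log2 fold changes ran from -0.94 to -0.09, with a median of -0.16. Ppib, a proline isomerase of the endoplasmic reticulum that helps collagen to fold, was at 159, 197, 189 and 113 in Pbs and at 113, 36.8, 105, 106 and 85.6 in Dox (log2 fold change -0.94, SE 0.350, unadjusted p = 0.0162, adjusted p = 0.739 by limma). The highest Dox library and the lowest Pbs library were both at 113, and Dox replicate 2 was the lowest. Ppib has 825 exon bases in common with Snx22 on the other strand. Serpinh1, the collagen chaperone HSP47, was at 69.2 ± 19.7 in Pbs against 41.1 ± 19.3 in Dox (log2 fold change -0.84, SE 0.424, adjusted p = 0.761 by limma). Fkbp10, another isomerase that acts on procollagen, was at 9.44 ± 3.68 and 9.08 ± 6.80.

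Of 4 tested genes for export and propeptide cleavage, 2 were higher and 2 lower by mean. Pcolce2, which enhances cleavage of the procollagen C-propeptide, was at 13.1 ± 5.35 in Pbs against 26.0 ± 8.55 in Dox, a log2 fold change of 0.96 (SE 0.498, adjusted p = 0.763 by limma). Its relative Pcolce was at 54.6 ± 2.67 and 45.9 ± 34.0. Mia3, which loads procollagen into transport vesicles, was at 19.98, 0, 36.6 and 34.0 in Pbs and at 43.6, 98.7, 43.9, 36.6 and 3.07 in Dox. Its log2 fold change was 1.28 with all libraries, 0.055 without Pbs replicate 2 and 2.02 without Dox replicate 5. Of the cross-linking enzymes, Loxl3, a lysyl oxidase, was at 531 ± 66.5 and 702 ± 225, and Tgm2, a transglutaminase, at 29.7 ± 7.55 and 27.9 ± 12.6. Loxl3 has 535 exon bases in common with Htra2, which was at 287 on the other strand. Neither cross-linking gene passed.

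Among 7 tested proteins that bind fibrils, 4 had a higher and 3 a lower mean, and without Pbs replicate 4 these were 2 and 5. Fn1, fibronectin, was at 16.4 ± 5.15 in Pbs against 9.01 ± 6.77 in Dox, a log2 fold change of -1.04 (SE 0.693, adjusted p = 0.820 by limma). Decorin (Dcn), a proteoglycan of fibril surfaces, was at 89.9, 102, 90.9 and 9.72 in Pbs and at 87.2, 135, 110, 59.0 and 39.4 in Dox. Pbs replicate 4 was again the lowest library, and the log2 fold change of Dcn was 0.53 with it and -0.25 without it. Tnxb, tenascin-X, was at 25.2 ± 11.6 and 33.7 ± 7.79. The single tested receptor, integrin beta 1 (Itgb1), was at 23.8 ± 13.3 and 36.9 ± 16.0.

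Of 6 tested proteases and inhibitors 5 had a higher mean in Dox. The count was 4 of 6 when Pbs replicate 4 was left out, as Mmp2 (log2 fold change 0.22 with it, -0.36 without) and Timp2 (0.048 and -0.067) became lower and Mmp11 (-0.0027 and 0.34) higher. Timp3, a metalloproteinase inhibitor bound to matrix, was at 28.4 ± 9.63 in Pbs against 42.2 ± 11.5 in Dox (log2 fold change 0.59, SE 0.407, adjusted p = 0.825 by limma), with 1733 exon bases in common with Syn3. Mmp19 was at 334 ± 43.0 and 432 ± 174, and Timp4 at 6.16 ± 5.17 and 20.2 ± 23.97. Among 3 tested regulators, Smad7, an inhibitor of TGF-beta signalling, was at 27.0, 26.4, 10.1 and 20.3 in Pbs and at 52.0, 36.8, 34.7, 35.9 and 42.5 in Dox. No Dox value was as low as any Pbs value, as in 1.27% of all genes (3.39% without Pbs replicate 4), and the log2 fold change was 0.99 (SE 0.415, unadjusted p = 0.0303, adjusted p = 0.761 by limma). Tgfb1, a ligand that induces collagen, was at 11.99, 0, 12.6 and 37.3 in Pbs and at 4.64, 3.87, 2.04, 0 and 12.8 in Dox. Its highest value was in Pbs replicate 4, the library rich in immune markers, and without it Tgfb1 had too few reads to be tested. Its log2 fold change was -1.15 with all libraries, -2.21 without Pbs replicate 2 and -0.64 without Dox replicate 4. Tgfb3 was at 13.0 ± 4.79 and 9.18 ± 4.46.

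**Figure D5:**
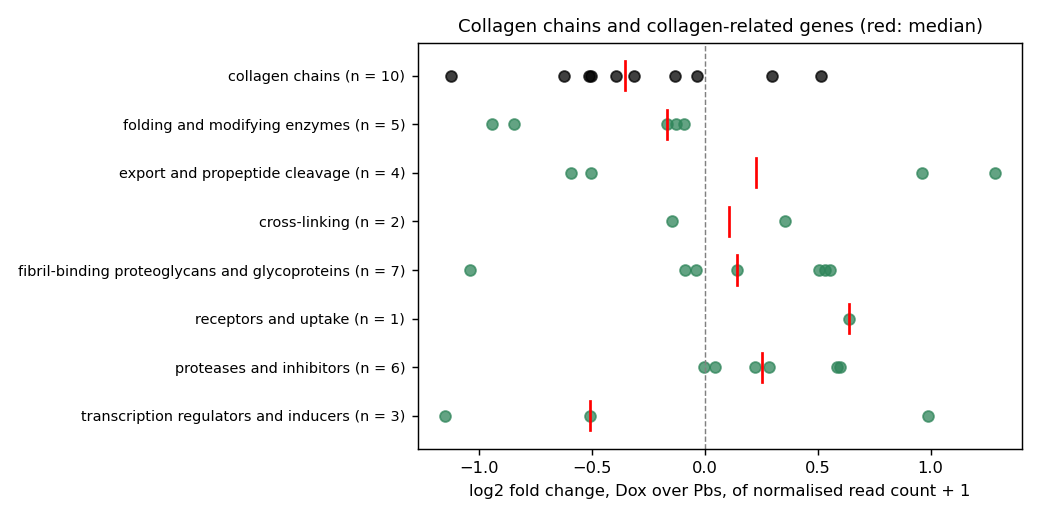
log2 fold change of normalised read count + 1, Dox over Pbs (horizontal axis), of the 10 tested collagen chains and of 28 tested genes of 7 lists of collagen-related genes; points are genes and red bars are medians. The 5 folding and modifying enzymes lie below 0 and 5 of 6 proteases and inhibitors above 0; the medians of the chains and of all 28 related genes are -0.35 and 0.02, and no gene passed the adjusted threshold.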

How the data were processed

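Bulk MARS-seq libraries of sorted lung fibroblasts were analysed, 4 Pbs and 5 Dox. Reads had been mapped by the authors to mm10 with STAR and assigned to RefSeq genes with HTSeq-count. No source used here gives versions, the strand setting or whether molecular tags were collapsed. The authors deposited a normalised signal per gene and library. All values were whole multiples of 1 step per library (tolerance 0.001), and the steps matched DESeq2 size factors to within 3.2e-09 percent, so whole reads were recovered. There were 55421 lines, and 119 repeated symbols were summed. Libraries of a group differed beyond sampling noise (chi-square per degree of freedom 9.12 to 54.2).

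The test was limma 3.58.1 (R 4.3.3) using a trended prior variance, two-sided, on log2(value + 1). Genes had to reach 10 in 4 or more libraries, and p-values were adjusted over all of them by Benjamini-Hochberg. p-values measure the spread between libraries labelled as biological replicates. Class sums and ratios were not tested. edgeR 4.0.16, DESeq2 1.42.0 and limma-voom used the recovered reads. Other alternatives changed scaling, filter, pseudocount, libraries and the replicate block. Fits were tested on simulated data with the dispersion set at 0.15. There limma recovered 15.9% of 2-fold and 92.4% of 4-fold changes, and edgeR 23.5% and 94.5%. Coordinates, exons and strands came from GENCODE M21, in which all 44 collagen genes were found. Ribosomal protein genes were compared with genes of the opposite strand after the values were seen.

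The collagen genes, classes and gene lists were chosen with earlier results of these data known. Every collagen was accounted for, and of each list of related genes up to 3 tested genes of lowest p were named. Mmp2, Timp2 and Mmp11 were named as well, for their change of sign without Pbs replicate 4. Figures were drawn with matplotlib 3.10.9 in Python 3.11.15.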

Additional observations from a re-analysis of the deposited data

Results flagged for a closer look

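Single libraries far from the rest of their group were looked for in 42 groups of values, where chance gives about 1 in 20, and 5 were found. Col12a1 was at 0 in Dox replicate 4 and Col5a1 at 0 in Dox replicate 1, where the other Dox libraries were at 8.17 or more and at 8.22 or more. Col6a2 was highest in Pbs replicate 2, at 114, and lowest in Dox replicate 2, at 15.5. The beaded-filament sum, of which Col6a2 is the main chain, was lowest in the same Dox library, at 34.8. The part of depth or of ribosomal RNA in these values was not tested.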

How the results depend on the processing

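No collagen chain passed an adjusted p of 0.05 in any of 21 alternative fits. The median log2 fold change stayed below 0 in all 21, over the chains that each fit tested (7 to 33 chains). Of 554 alternative values of 28 genes, 533 kept their sign. These genes were the tested chains and, of each list of related genes, up to 3 tested genes of lowest p. The direction held in every fit that tested the gene for Col1a1 (-0.56 to -0.17), Col6a1 (-1.94 to -0.78), Col6a2 (-0.79 to -0.16), Col14a1 (-0.81 to -0.27) and Col4a1 (0.15 to 0.81), on the log2 scale. Among these 28 genes it turned for 9. Other related genes were not counted, such as Mmp2, Timp2 and Mmp11, which turned without Pbs replicate 4. Leaving out 1 library gave -0.56 to 0.28 for Col1a2 (above 0 without Pbs replicate 1 at 0.28 or 2 at 0.19, or Dox replicate 4 at 0.13 or 5 at 0.0090) and -0.81 to 0.17 for Col3a1 (0.14 and 0.17 without Pbs replicates 1 and 3, 0.022 and 0.040 without Dox replicates 4 and 5). Ranges were -0.67 to 0.075 for Col4a3 (Dox replicate 4), -1.01 to 0.33 for Col5a1 (Dox replicate 1), -0.076 to 1.06 for Col12a1 (Pbs replicate 2), -0.25 to 0.84 for Dcn (Pbs replicate 4), -0.48 to 0.046 for Fkbp10 (Dox replicate 2) and -0.18 to 1.33 for Timp4 (Pbs replicate 3), with the library whose removal turned the sign in brackets. By limma-voom Col12a1 was at -0.27, Fkbp10 at 0.047 and Timp4 at -1.38. With Pbs replicate 4 and Dox replicate 2 both left out Dcn was at -0.45 and Tgm2 at 0.0032. The median of the related genes, 0.02 as reported, was below 0 in 9 of 21 fits, at -0.14 with both of these libraries left out, -0.13 with fibroblast marker scaling, -0.081 with a minimum of 5, -0.067 without Pbs replicate 4 and between -0.046 and -0.0090 in the others, so it has no firm sign. Class sums changed sign in 6 of 66 values, all of the transmembrane or short-chain sums, and chain ratios in 5 of 36, of which Col3a1 to Col1a1 went from 0.19 to -0.27 and Col1a2 to Col1a1 from 0.29 to -0.0027 without Pbs replicate 4, each within 1 SD. The cause was not tested.

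With the replicate number as a block, which leaves out Dox replicate 5, Col1a2 was at 0.0090 and Col3a1 at 0.040, as in the fit that leaves out that library without a block, and 0 of 8 chains tested passed, 5 lower and 3 higher, with a median of -0.34. The correlations of same-numbered libraries were low, at 0.011 to 0.073. Pbs replicates 1, 2 and 4 each correlated best with the Dox library of the same number, and Pbs replicate 3 with Dox replicate 2. Whether the numbers stand for a pairing is not given, and these correlations cannot decide it. With no filter, 3 of 17428 genes passed by limma (0.0172%), none a collagen. DESeq2 and this fit each had 2 of 33 collagens under an unadjusted 0.05, against 463 and 459 of all 17428 genes. The main test left out the 23 chains above 0 with too few reads, and whether depth or the counted strand sets this was not tested.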
